A study of Mus musculus with 10 samples.

Results

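Genes for secreted antimicrobial and acute-phase proteins were described in mouse macrophages that carried or lacked Jaml, the gene of the junctional adhesion molecule-like protein. The set was fixed by name: the lysozymes Lyz1 and Lyz2, the peptidoglycan recognition protein Pglyrp1, the cathelicidin Camp, the calprotectin subunit S100a8, the pore former Mpeg1, the protease inhibitor Slpi, the serum amyloid Saa3 and the orosomucoid Orm1. The names were chosen with earlier results of these data known. All 9 names were found, each on 1 identifier, among the 56980 genes of the deposited count table. Per the series labels, the macrophages came from mice with Jaml intact (WT) or with Jaml removed in macrophages (KO). All of them received lipopolysaccharide (LPS), a bacterial cell wall component sensed by TLR4, at 100 ng/ml over 8 h, and then ATP at 5 mM over 30 min. There were 5 WT and 5 KO libraries of total RNA. No untreated cells were analysed here, so every level below is a level after stimulation. KO is named a macrophage knockout in the titles but a knockdown in the genotype tag. No label names the promoter or Cre line used, the tissue the macrophages were taken from, or the age of the mice.

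Macrophages and neutrophils kill microbes with enzymes that cut bacterial cell walls (lysozymes), peptides and pore formers that breach membranes (cathelicidin, perforin-2) and proteins that withhold metals (calprotectin). Acute-phase proteins such as serum amyloid A and orosomucoid are made mainly by the liver in response to interleukin-6 and interleukin-1, and Saa3 is the serum amyloid gene that mouse macrophages themselves switch on after LPS. The transcription factors PU.1, C/EBP and NF-kB are known to act on many of these genes in myeloid cells.

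Libraries held 19319512 to 22766319 counts. Levels are given as CPM, counts divided by library size and by the TMM composition factor, on the usual CPM scale, and a floor of 3 counts corresponds to 0.132 to 0.155 CPM per library by size alone, covering counting error only. The WT columns of the deposited table can be matched to labels by name. The 5 others bear the heading SI, a term absent from the labels, and were read as KO by elimination. All directions depend on this reading. Jaml (ENSMUSG00000048534) offered no check of it, since all 10 libraries lay below the floor: WT 1 and KO 4 had 2 counts of it and the rest had 0. The macrophage label held up against its markers, with Cd68 at 2473 ± 53.6 CPM in WT and 2616 ± 158 CPM in KO, and Adgre1 at 1555 ± 15.1 and 1535 ± 64.3 CPM (mean ± SD, n = 5 each). Whether each library stands for its own animal or culture is not given in the labels, and the p-values reflect the spread among these libraries, part of which may be technical. KO 1 and KO 2 stood apart from the rest in hepatocyte genes, as did WT 2 to a smaller degree, and the mesothelial gene Msln was spread unevenly over the KO libraries. Those values are given beside the genes they move with. In bulk RNA, fewer cells of a type and less RNA per cell cannot be told apart.

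Of the 9 genes, 8 passed the filter on low counts and Pglyrp1 did not. In KO, Camp, S100a8 and Orm1 rose 1.32-fold to 1.47-fold, Lyz1 fell 1.42-fold and Mpeg1 fell 1.20-fold. Lyz2, Slpi and Saa3 did not pass the test. A gene counted as called where the edgeR quasi-likelihood p, adjusted by Benjamini-Hochberg over all 14436 genes tested, was under 0.05. Over all those genes, 29.1% were called, 14.1% higher and 15.0% lower, so 3 of 8 higher and 2 of 8 lower are counts from a comparison in which calls were common. The median log2 fold change of the 8 genes was 0.14, beside 0.01 for all genes tested. In 4 of the 8 (S100a8 and Orm1 higher, Lyz1 and Mpeg1 lower) the KO libraries did not overlap the WT libraries, as was so for 23.3% of all genes tested. Scaled by library totals instead, the median of all genes moved to 0.12, and 5 of the 8 genes were called higher and 2 lower. Differences below are therefore relative to the TMM scaling.

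**Figure D1:**
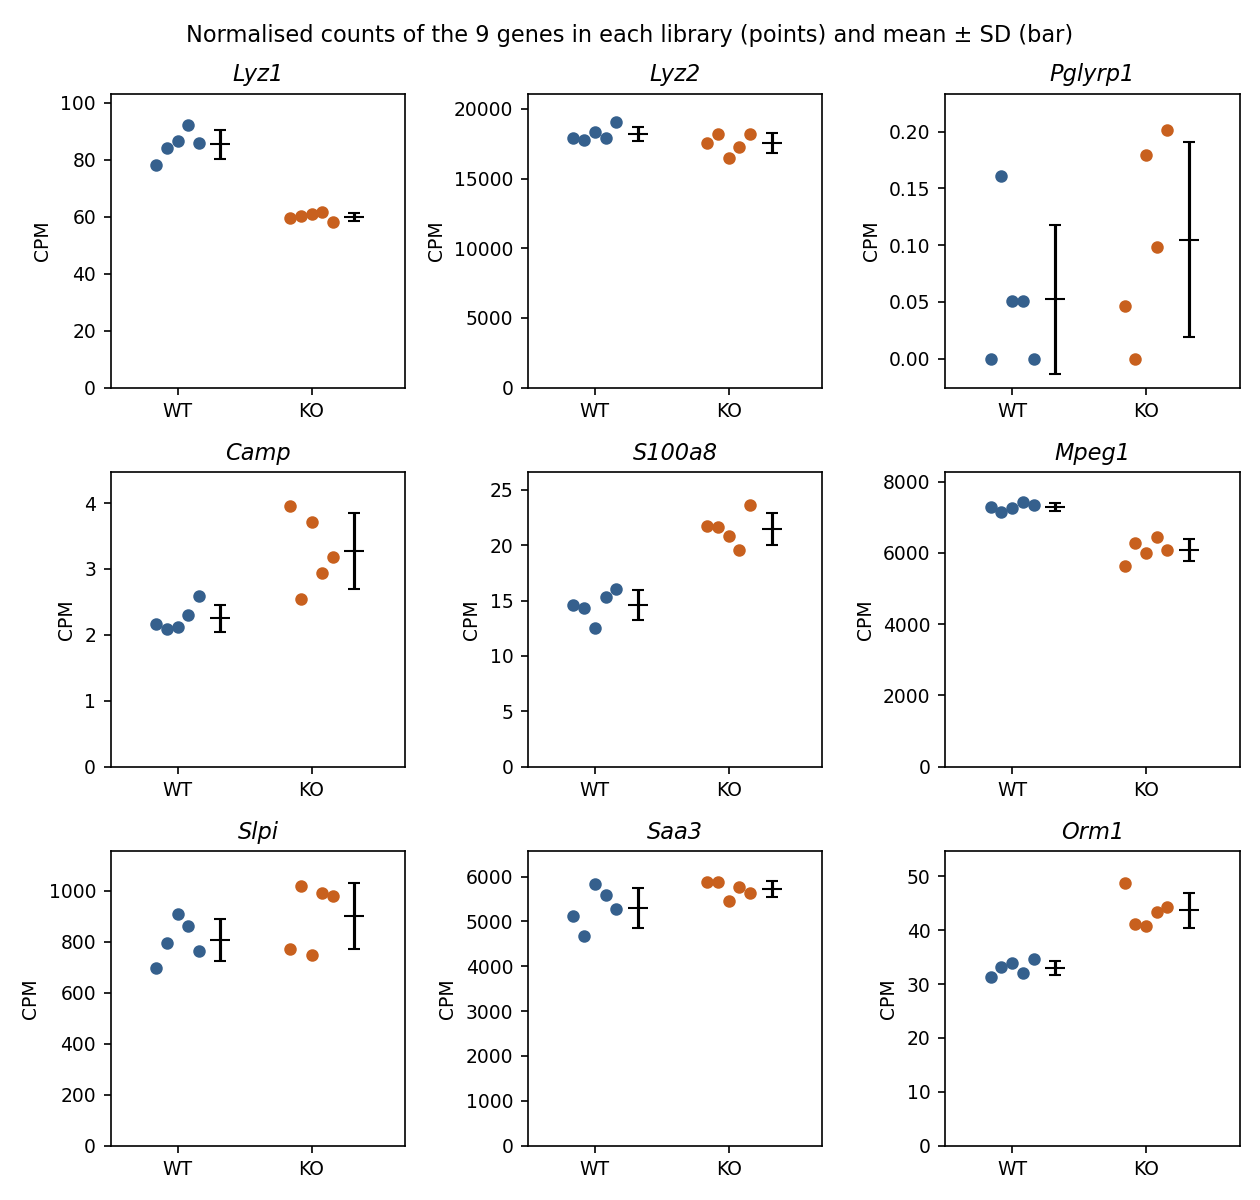
CPM of each gene in the 5 WT and 5 KO libraries, shown as points in library order from 1 to 5 with a separate linear axis for each gene, and the mean with SD as bars. Points of Lyz1 and Mpeg1 lie wholly lower in KO and those of S100a8 and Orm1 wholly higher, while Pglyrp1 stays at 0 to 4 counts per library.

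The 9 genes differed widely in abundance, and together they held 2.95% to 3.20% of all counts in each library. Levels can be ordered across genes only per kilobase of gene length, for which the length behind the authors' FPKM was used. That length was 3056 bases for Saa3, though its GENCODE transcript (GRCm38) held only 506 windows of 50 bases. For Lyz1 it was 1263 bases, beside 1214 windows. A shorter length would place Saa3 higher, so its order against Mpeg1 holds only for the length used. With the lengths used, Lyz2 stood first of all 14436 genes in WT, at 13837 ± 396 CPM per kb. Saa3 followed at 1734 ± 144 and Mpeg1 at 1682 ± 24.2 CPM per kb, and on this scale these neighbours did not differ beyond their spread. Slpi came next at 488 ± 50.04 CPM per kb, then Lyz1 at 67.6 ± 3.98, Orm1 at 42.6 ± 1.73, S100a8 at 14.8 ± 1.36 and Camp at 2.97 ± 0.269 CPM per kb (mean ± SD over 5 WT libraries). In KO, with the same lengths, Saa3 at 1873 ± 58.5 and Mpeg1 at 1404 ± 71.0 CPM per kb were no longer within each other's spread. Orm1 at 56.4 ± 4.14 CPM per kb had passed Lyz1 at 47.5 ± 1.09 CPM per kb, and the rest of the order was the same. S100a8 and Camp, which are known as major products of neutrophils, were thus the least abundant of the genes that could be tested.

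Lysozyme cuts the peptidoglycan of bacterial walls, and mice carry 2 neighbouring lysozyme genes, Lyz2 of macrophages and Lyz1, best known from the Paneth cells of the gut. In the deposited table Lyz1 (ENSMUSG00000069515) lies on chromosome 10 from 117123702 to 117128773 and Lyz2 (ENSMUSG00000069516) from 117113236 to 117118226, with 5476 bases from the end of the one to the start of the other. The build of these positions is not stated by role, and none of the 9 genes has the same position in GRCm38. The coding sequences are shown because the 2 genes had to be told apart by short reads. They are taken from the GENCODE annotation of GRCm38, minus strand, 4 coding exons each, spanning chr10:117288586-117292838 for Lyz1 and chr10:117278124-117282242 for Lyz2. The first 300 coding bases are printed, which hold 20 of the 22 differences, and capitals mark the bases at which the genes differ.
Lyz1: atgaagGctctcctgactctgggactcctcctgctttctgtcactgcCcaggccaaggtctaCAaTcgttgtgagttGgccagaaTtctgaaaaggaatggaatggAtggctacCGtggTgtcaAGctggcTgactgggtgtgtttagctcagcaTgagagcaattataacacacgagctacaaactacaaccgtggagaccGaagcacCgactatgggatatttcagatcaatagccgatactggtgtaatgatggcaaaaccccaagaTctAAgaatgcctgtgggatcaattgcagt
Lyz2: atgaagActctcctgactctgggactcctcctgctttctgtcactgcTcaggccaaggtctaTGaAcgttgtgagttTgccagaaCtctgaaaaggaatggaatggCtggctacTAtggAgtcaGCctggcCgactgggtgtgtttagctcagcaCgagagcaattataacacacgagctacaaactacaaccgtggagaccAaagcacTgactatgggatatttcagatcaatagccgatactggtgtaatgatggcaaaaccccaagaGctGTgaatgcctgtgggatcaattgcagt
Both coding sequences run over 444 bases, of which 22 differ (95.045% identity), and the longest identical stretch is 118 bases. Of the 1214 windows of 50 bases in the Lyz1 transcript, 16.1% also occur in Lyz2. How the authors' counter treated reads that fit both genes is not given in the sources used here, so the level of the less abundant gene is uncertain.

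Lyz1 was lower in every KO library. It stood at 78.1, 84.1, 86.5, 92.1 and 85.9 CPM in WT 1 to WT 5. In KO 1 to KO 5 it stood at 59.3, 60.2, 60.8, 61.7 and 58.1 CPM. The KO libraries lay close together and all below the lowest WT library. The mean went from 85.4 ± 5.02 to 60.0 ± 1.38 CPM (SD, n = 5 each), a log2 fold change of -0.51 ± 0.04 (estimate ± SE, as for all log2 values; edgeR adjusted p = 6.17e-06). Over 21 other settings its log2 fold change ran from -0.53 to -0.39 and it stayed past the threshold in all of them.

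Lyz2, the second most abundant of all genes tested by CPM, did not pass. It stood at 17892, 17800, 18349, 17944 and 19063 CPM in WT 1 to WT 5. The KO libraries held 17557, 18177, 16473, 17238 and 18213 CPM. The groups overlapped, with KO 2 and KO 5 inside the WT range. The means were 18209.6 ± 521 CPM in WT and 17531 ± 722 CPM in KO, and the 95% interval of the difference ran from 0.912-fold to 1.02-fold (log2 fold change -0.05 ± 0.04, edgeR adjusted p = 0.289). With library totals the sign of this small difference turned, to 0.06 with an edgeR adjusted p of 0.0973.

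The 2 genes can also be compared within a library, where scaling drops out. Lyz1 made up 0.435%, 0.470%, 0.469%, 0.511% and 0.449% of the summed lysozyme counts in WT 1 to WT 5. Its share in KO 1 to KO 5 was 0.337%, 0.330%, 0.368%, 0.356% and 0.318%. All KO shares lay below all WT shares, and the 95% exact binomial (Clopper-Pearson) intervals did not meet: the lowest WT bound was 0.414% and the highest KO bound 0.388%. These intervals cover counting error only. The mean share was 0.467% ± 0.0287 in WT and 0.342% ± 0.0202 in KO (SD, n = 5 each), lower by a difference of -0.125 percentage points (exact permutation test over libraries, two-sided, p = 0.00794, the smallest p that 5 against 5 allows). Put the other way, there were 195 to 229 Lyz2 counts for each Lyz1 count in WT and 271 to 314 in KO.

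**Figure D2:**
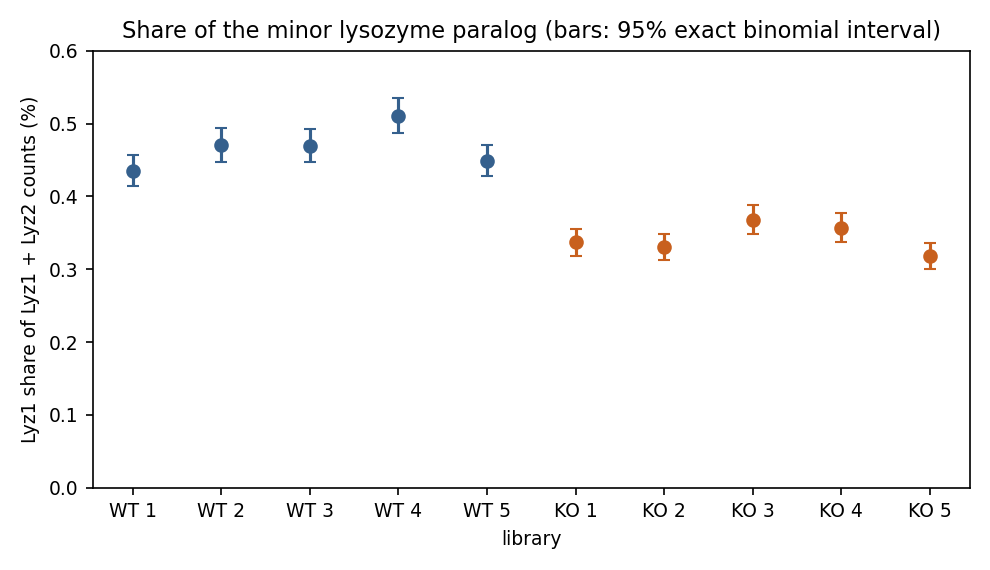
Share of Lyz1 in the summed Lyz1 and Lyz2 counts of each library, in percent, with bars for the 95% exact binomial interval, which covers counting error only. WT points (blue) lie between 0.435% and 0.511% and KO points (orange) between 0.318% and 0.368%.

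The promoters of the pair are shown because the genes share much of their coding sequence and differed in their response. They are the 250 bases before the start from RefSeq (GRCm38.p6, minus strand), at chr10:117292869-117293118 for Lyz1 and chr10:117282273-117282522 for Lyz2. Capitals mark matches to 4 motifs searched on both strands: TTNCNNAA for C/EBP, GAGGAAG for PU.1, TATAAA for the TATA box and the consensus of NF-kB. Matches to different motifs did not overlap in the set.
Lyz1: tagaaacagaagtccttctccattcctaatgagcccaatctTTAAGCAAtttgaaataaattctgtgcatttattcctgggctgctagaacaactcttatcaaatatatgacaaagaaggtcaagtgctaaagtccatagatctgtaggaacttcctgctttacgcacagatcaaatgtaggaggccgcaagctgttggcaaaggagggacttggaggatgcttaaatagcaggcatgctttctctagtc
Lyz2: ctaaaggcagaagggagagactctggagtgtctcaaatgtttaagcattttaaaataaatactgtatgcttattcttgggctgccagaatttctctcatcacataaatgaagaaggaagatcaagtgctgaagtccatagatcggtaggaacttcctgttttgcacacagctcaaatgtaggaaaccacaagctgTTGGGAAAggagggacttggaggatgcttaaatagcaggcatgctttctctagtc
The last 50 bases before the start were identical in the pair. A C/EBP match began at -209 in Lyz1 and at -55 in Lyz2, counted from the start, and neither window held a match to another motif. Of the 32851 promoters in the RefSeq table, 36.8% held a C/EBP match, 10.6% a PU.1 match, 12.4% a TATA box match and 3.9% an NF-kB match. Among the 8 genes of the set with an entry there, 5 held a C/EBP match (Lyz1, Lyz2, Slpi, S100a8 and Saa3), 2 a PU.1 match (S100a8 and Pglyrp1), 1 a TATA box match (S100a8) and 1 an NF-kB match (Pglyrp1). Matches are a description of letters in a short window.

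Pglyrp1 (ENSMUSG00000030413, chromosome 7, 18605256 to 18624384), which binds bacterial peptidoglycan and is stored in neutrophil granules, was at the edge of detection. It had 0, 3, 1, 1 and 0 counts in WT 1 to WT 5. In KO 1 to KO 5 it had 1, 0, 4, 2 and 4 counts. WT values lay at or under the floor of 3 counts, 2 KO values lay just above it, and a difference was not detectable at this depth.

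A list of 8 genes of peptidoglycan sensing, signalling and transport was read beside the lysozymes, with the kinase Ripk2 and the receptor Tlr2 among them. The list was chosen with earlier results of these data known. Over all genes tested, 14.1% were called higher and 15.0% lower. In KO 5 of the 7 list genes tested fell and 1 rose, and 1 did not pass. Their median log2 fold change was -0.48, beside 0.01 for all genes tested. Nod2, the cytosolic sensor of muramyl dipeptide, fell by 0.79 ± 0.05 on the log2 scale (edgeR adjusted p = 3.79e-07). Slc15a3, a lysosomal transporter of peptidoglycan fragments and the most abundant of the list, went from 1311 ± 35.2 to 827 ± 28.0 CPM, a log2 fold change of -0.66 ± 0.03 (edgeR adjusted p = 1.49e-07). Nod1, the sensor of other wall peptides, fell by 0.48 ± 0.06 and Tlr2, a surface receptor for bacterial lipoproteins, by 0.30 ± 0.04 on the same scale. Slc46a3, a lysosomal solute carrier, rose by 0.65 ± 0.14 from a low level of 3.904 ± 0.644 CPM.

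Camp (ENSMUSG00000038357, chromosome 9, 109676447 to 109678685) encodes the cathelicidin CRAMP, a peptide that permeabilises bacterial membranes and is stored in neutrophil granules. It stood at 2.17, 2.09, 2.12, 2.30 and 2.59 CPM in WT 1 to WT 5, from 39 to 52 counts. The KO libraries held 3.96, 2.55, 3.71, 2.95 and 3.18 CPM, from 59 to 86 counts. KO 1 and KO 3 were highest, and KO 2 lay just under the highest WT library, so the groups overlapped. The mean rose from 2.25 ± 0.204 to 3.27 ± 0.574 CPM (SD, n = 5 each), a log2 fold change of 0.53 ± 0.14 (edgeR adjusted p = 0.0133). Within KO, KO 1 and KO 3 also held the most RNA of the mesothelial gene Msln, 8.99 and 11.4 CPM against 0.302 to 1.08 CPM in the other 3, whereas the WT libraries held 5.03 to 9.74 CPM. Msln is named after its values were seen. Without KO 1 and KO 3 the log2 fold change of Camp was 0.35 and no longer passed (edgeR adjusted p = 0.0775). Since these libraries held the most Camp in KO, leaving them out was bound to lower the estimate, whatever their Msln. The part of mesothelial RNA in the result was not tested.

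S100a8 (ENSMUSG00000056054, chromosome 3, 90576285 to 90577342) encodes a calcium-binding protein that pairs with S100a9 to form calprotectin, which withholds zinc and manganese from microbes. Its promoter held the most kinds of motif in the set, with matches to PU.1 at -171, C/EBP at -117 and the TATA box at -30, and is shown for that reason (RefSeq, GRCm38.p6, plus strand, chr3:90668821-90669070, capitals as above).
S100a8: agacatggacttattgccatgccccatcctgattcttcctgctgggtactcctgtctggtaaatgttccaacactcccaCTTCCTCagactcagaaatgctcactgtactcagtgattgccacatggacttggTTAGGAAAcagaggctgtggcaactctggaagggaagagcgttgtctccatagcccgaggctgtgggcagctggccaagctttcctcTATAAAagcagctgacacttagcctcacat
S100a8 stood at 14.6, 14.3, 12.5, 15.4 and 16.1 CPM in WT 1 to WT 5. In KO 1 to KO 5 it stood at 21.7, 21.6, 20.8, 19.5 and 23.6 CPM. Every KO library was above every WT library. The mean rose from 14.6 ± 1.33 to 21.5 ± 1.48 CPM (SD, n = 5 each), the largest fold change of the set at 1.47-fold (log2 fold change 0.56 ± 0.07, edgeR adjusted p = 0.000142), and the call held in all 21 other settings.

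The partner S100a9 was not seen at a matching level. It had 0 to 3 counts in each library, at or under the floor, where S100a8 had 248 to 501 counts. The floor allows an S100a9 count of up to 0.929% to 1.21% of that of S100a8 in WT and 0.599% to 0.754% in KO. The ratio of S100a9 to S100a8 was therefore not compared between genotypes. Among 11 other S100 genes 7 were tested. Of these, 1 rose and 6 did not pass (median log2 fold change 0.03), beside 14.1% called higher over all genes tested. The 1 that rose was S100a1, by 0.25 ± 0.06 (edgeR adjusted p = 0.00882), and without KO 1 and KO 2 its log2 fold change was 0.21 and did not pass (adjusted p = 0.0635). With library totals 4 of the 7 were called higher. S100a10 and S100a11, subunits of annexin complexes, did not pass (log2 fold change -0.01 ± 0.09 and 0.03 ± 0.04, with the first turning to 0.11 under library totals).

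Because Camp, S100a8 and Pglyrp1 are known as neutrophil products, a list of 16 neutrophil markers was read beside them. Of these, 12 fell below the filter, with 0 to 22 counts per library. Ly6g had 0 to 3 counts, Mpo 0 to 1 and Cxcr2 0 to 3, and Stfa2l1 had 0 in all 10 libraries. Others below the filter reached more, such as Ngp with 0 to 7 and Cd177 with 0 to 15 counts. Prtn3, which was tested, had 19 to 31 counts per library and did not pass (log2 fold change -0.05 ± 0.17). All of these are named after their values were seen. Camp was the only one of the 4 tested markers that was called, and Mmp8 and Csf3r, which macrophages also express, did not pass (log2 fold change 0.09 ± 0.07 and -0.14 ± 0.05). With library totals 2 of the 4 were called higher, Mmp8 among them (0.20, adjusted p = 0.0275). Csf3r passed as lower without WT 2 (-0.15, adjusted p = 0.0489) and without KO 4 (-0.17, adjusted p = 0.0418). The summed level of the list ranged from 124 to 131 CPM in WT and from 118 to 135 CPM in KO. Most of this sum came from Mmp8 (66.4 ± 5.82 CPM in WT, 70.6 ± 5.40 in KO) and Csf3r (55.7 ± 3.47 and 50.4 ± 2.53 CPM). It is therefore no measure of neutrophil RNA. Fcnb, a ficolin, had 0 to 4 counts in WT and 6 to 22 in KO, and is named after its values were seen.

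Mpeg1 (ENSMUSG00000046805, chromosome 19, 12438143 to 12442647) encodes perforin-2, a pore-forming protein of phagocytic vacuoles. It is anchored in membranes, and so it is the gene of the set that the name secreted fits least. It stood at 7281, 7136, 7259, 7415 and 7351 CPM in WT 1 to WT 5, the narrowest spread of the set (coefficient of variation 1.44%). The KO libraries held 5628, 6283, 5995, 6435 and 6079 CPM. Every KO library was below every WT library, with KO 1 lowest. The mean fell from 7288 ± 105 to 6084 ± 308 CPM (SD, n = 5 each), a log2 fold change of -0.26 ± 0.04 (edgeR adjusted p = 0.000234). Of the alternatives library totals moved it most, to -0.15, still past the threshold (edgeR adjusted p = 0.001738).

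Slpi (ENSMUSG00000017002, chromosome 2, 164195990 to 164231015) encodes the secretory leukocyte protease inhibitor, which blocks neutrophil elastase, damps NF-kB signalling and has antimicrobial activity. It stood at 698, 795, 910, 863 and 766 CPM in WT 1 to WT 5. The KO libraries held 771, 1019, 750, 991 and 981 CPM. KO 1 and KO 3 lay within the WT range and the other 3 above it. The means were 806 ± 82.7 and 902 ± 131 CPM (SD, n = 5 each), and the 95% interval of the difference ran from 0.960-fold to 1.30-fold (log2 fold change 0.16 ± 0.10, edgeR adjusted p = 0.266). Without KO 1 and KO 3, the KO libraries with the most Msln, the log2 fold change was 0.30 and passed (edgeR adjusted p = 0.0138). Those libraries also held the least Slpi in KO (771 and 750 CPM), so leaving them out was bound to raise the estimate. The KO libraries left in that fit held less Msln than every WT library, so it did not even out Msln between the genotypes. The part of mesothelial RNA was not tested here either. The gene overlaps the microRNA gene Mir7678, which had 1 to 4 counts.

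Other secreted antimicrobial genes were read from a list of 31, of which 14 were tested. In KO 4 of the 14 rose, 3 fell and 7 did not pass, beside 14.1% called higher and 15.0% lower over all genes tested. The median log2 fold change of the 14 was -0.03. Lcn2, a siderophore-binding protein that starves bacteria of iron, stood at 446, 443, 480, 459 and 469 CPM in WT 1 to WT 5. In KO 1 to KO 5 it stood at 672, 707, 769, 761 and 797 CPM, all above WT (log2 fold change 0.69 ± 0.05, edgeR adjusted p = 1.15e-06). The WAP-domain genes Wfdc21 and Wfdc17, relatives of Slpi, rose too. Wfdc21 rose by 2.39 ± 0.30 from 0.346 ± 0.215 to 1.83 ± 0.246 CPM. Wfdc17 rose by 0.44 ± 0.12 (edgeR adjusted p = 0.0188), with KO 3 inside the WT range, and did not pass without KO 1 and KO 2 (adjusted p = 0.120). Rarres2, the chemerin gene, rose by 1.42 ± 0.22 to 2.00 ± 0.432 CPM. Rnase4, a secreted ribonuclease, fell by 0.41 ± 0.07 and Chil1, a chitinase-like protein, fell by 1.16 ± 0.22 on the log2 scale. The remaining 17 genes of the list had 0 to 22 counts per library.

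**Figure D3:**
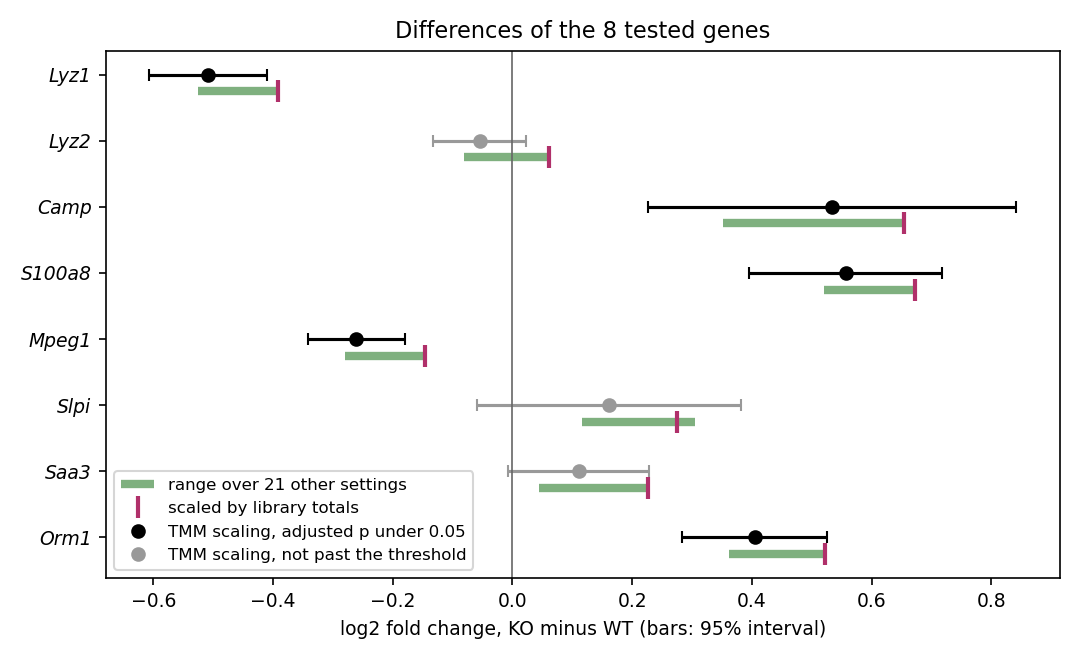
Log2 fold change of the 8 tested genes, KO minus WT, as points with 95% intervals (black: adjusted p under 0.05; grey: not past the threshold), above the range over 21 other settings in green and the value under library totals in magenta. Only the green range of Lyz2 reaches both sides of 0, and the library totals shift every gene upwards.

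Saa3 (ENSMUSG00000040026, chromosome 7, 46361422 to 46365124) encodes the serum amyloid A that macrophages and fat cells make. It stood at 5121, 4681, 5832, 5582 and 5282 CPM in WT 1 to WT 5. The KO libraries held 5875, 5877, 5458, 5777 and 5634 CPM. The KO values fell within or just above the upper part of the WT range. The means were 5300 ± 441 and 5724 ± 179 CPM (SD, n = 5 each), and the 95% interval of the difference ran from 0.995-fold to 1.17-fold (log2 fold change 0.11 ± 0.05, edgeR adjusted p = 0.151). Saa3 passed with library totals (0.23, adjusted p = 0.00436) and without WT 3 (0.16, adjusted p = 0.0321).

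Orm1 (ENSMUSG00000039196, chromosome 4, 63262797 to 63266400) encodes orosomucoid, a lipocalin that carries drugs and lipids in plasma. Part of its coding sequence is shown beside that of its neighbour Orm2, since 20.4% of the 50-base windows of the Orm1 transcript occur in Orm2 as well. The stretch is coding bases 139 to 258 (GENCODE, GRCm38, chromosome 4, plus strand), where 26 of the 63 differences between the genes fall, and capitals mark them.
Orm1: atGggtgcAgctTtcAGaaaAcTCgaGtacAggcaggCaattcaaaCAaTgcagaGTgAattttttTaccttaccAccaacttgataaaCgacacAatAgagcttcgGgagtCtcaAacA
Orm2: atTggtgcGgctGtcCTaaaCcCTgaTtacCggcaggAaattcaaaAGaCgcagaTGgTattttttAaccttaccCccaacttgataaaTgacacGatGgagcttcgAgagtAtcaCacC
Orm1 stood at 31.3, 33.1, 33.9, 32.1 and 34.6 CPM in WT 1 to WT 5. In KO 1 to KO 5 it stood at 48.8, 41.1, 40.9, 43.4 and 44.4 CPM. Every KO library was above every WT library, with KO 1 highest. The mean rose from 33.0 ± 1.34 to 43.7 ± 3.21 CPM (SD, n = 5 each), a log2 fold change of 0.40 ± 0.06 (edgeR adjusted p = 0.000188). Orm2 held 6.14% to 10.5% of the Orm1 counts and did not pass (0.39 ± 0.19, adjusted p = 0.147), so reads that fit both genes leave some uncertainty in either level.

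Orm1 is also a liver product, and hepatocyte markers were uneven over the libraries. The 6 hepatocyte markers, led by albumin (Alb), summed to 132 CPM in KO 1 and 150 CPM in KO 2, against 4.42 to 11.8 CPM in the other KO libraries. In WT they summed to 22.3 CPM in WT 2 and to 3.84 to 5.92 CPM elsewhere. Orm1 stood at 40.9 to 44.4 CPM in KO 3, KO 4 and KO 5, beside 41.1 CPM in KO 2. Without KO 1 and KO 2 its log2 fold change was 0.38 (edgeR adjusted p = 0.000646). Leaving out WT 2 as well gave 0.38 again (edgeR adjusted p = 0.00211). The part of hepatocyte RNA in the Orm1 result was not tested. The liver-type amyloids Saa1 and Saa2 were highest in KO 1 and KO 2, at a summed 5.99 CPM and 7.90 CPM. They summed to 0.687 to 1.39 CPM in the other KO libraries and to 0.256 to 1.02 CPM in WT. They came to at most 0.134% of the Saa3 counts.

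**Figure D4:**
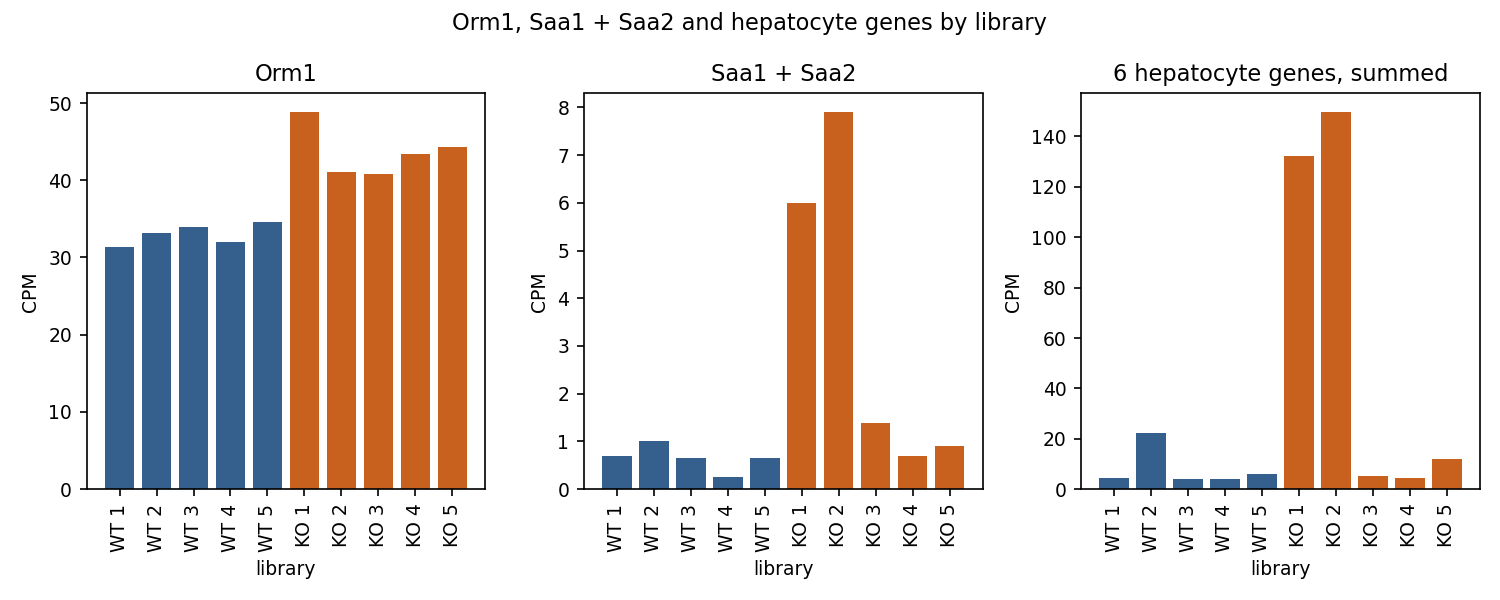
CPM in each library (bars, linear axes from 0; blue WT, orange KO) of Orm1, of Saa1 and Saa2 summed and of 6 hepatocyte markers summed. KO 1 and KO 2 reach 132 and 150 CPM for the hepatocyte markers and 5.99 and 7.90 CPM for the amyloids, whereas Orm1 lies between 40.9 and 48.8 CPM in all KO libraries.

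Among 28 other acute-phase genes, 21 were tested. Of these, 8 rose, 3 fell and 10 did not pass, beside 14.1% called higher and 15.0% lower over all genes tested. Their median log2 fold change was 0.27. Without KO 1 and KO 2 the counts were 4 higher and 3 lower, and with library totals they were 12 higher and 3 lower. Haptoglobin (Hp), which binds free haemoglobin, stood at 364, 269, 473, 435 and 350 CPM in WT 1 to WT 5. In KO 1 to KO 5 it stood at 1077, 1098, 1356, 1376 and 1543 CPM, and its lowest KO values were those of KO 1 and KO 2 (log2 fold change 1.77 ± 0.15, edgeR adjusted p = 4.45e-06). Complement C3 rose by 0.25 ± 0.05 to 1681 ± 100.0 CPM, while factor B (Cfb), the most abundant of the list, stood at 4984 ± 345 and 4996 ± 247 CPM and did not pass (adjusted p = 0.971), though it passed with library totals (0.12, adjusted p = 0.0432). The antiprotease Serpina1b and the fibrinogen chains Fga and Fgg were called higher by 2.82 to 3.22 on the log2 scale, but their KO level lay in KO 1 and KO 2, and none of these 3 passed without those libraries. Of the genes that fell, named after their values were seen, Il1rn, the interleukin-1 receptor antagonist, fell by 0.45 ± 0.04 and Serpina3g, an antiprotease, by 2.06 ± 0.20 on the log2 scale.

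Of 24 cytokines, receptors and transcription factors known to act on such genes, 23 were tested. In KO 11 of them fell, 4 rose and 8 did not pass (median log2 fold change -0.17). Of all genes tested, 15.0% were called lower and 14.1% higher. Tnf went from 802 ± 50.01 to 239 ± 21.04 CPM (log2 fold change -1.75 ± 0.07, edgeR adjusted p = 2.99e-08). Il6, the main inducer of liver acute-phase genes, fell by 1.48 ± 0.14 to 5.41 ± 1.02 CPM. Csf3, the granulocyte growth factor, fell by 0.89 ± 0.11, and Spi1, which encodes PU.1, fell by 0.33 ± 0.04 on the log2 scale. Hif1a fell by 0.17 ± 0.03, a difference that did not pass with library totals. Il1b, the interleukin-1 beta gene, rose by 0.26 ± 0.09 (edgeR adjusted p = 0.0421), with overlapping groups. Il6ra rose by 0.24 ± 0.06 and Vdr by 0.71 ± 0.08 on the log2 scale. Il1b, Il6ra and Vdr are named after their values were seen. Among C/EBP factors, named after their values were seen, Cebpa rose by 0.43 ± 0.06 (adjusted p = 0.000284), whereas Cebpb varied from 145 to 431 CPM over the libraries and did not pass, nor did Cebpd. Cebpe, a C/EBP factor of granulocyte maturation, had 2 to 16 counts and was not tested.

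**Figure D5:**
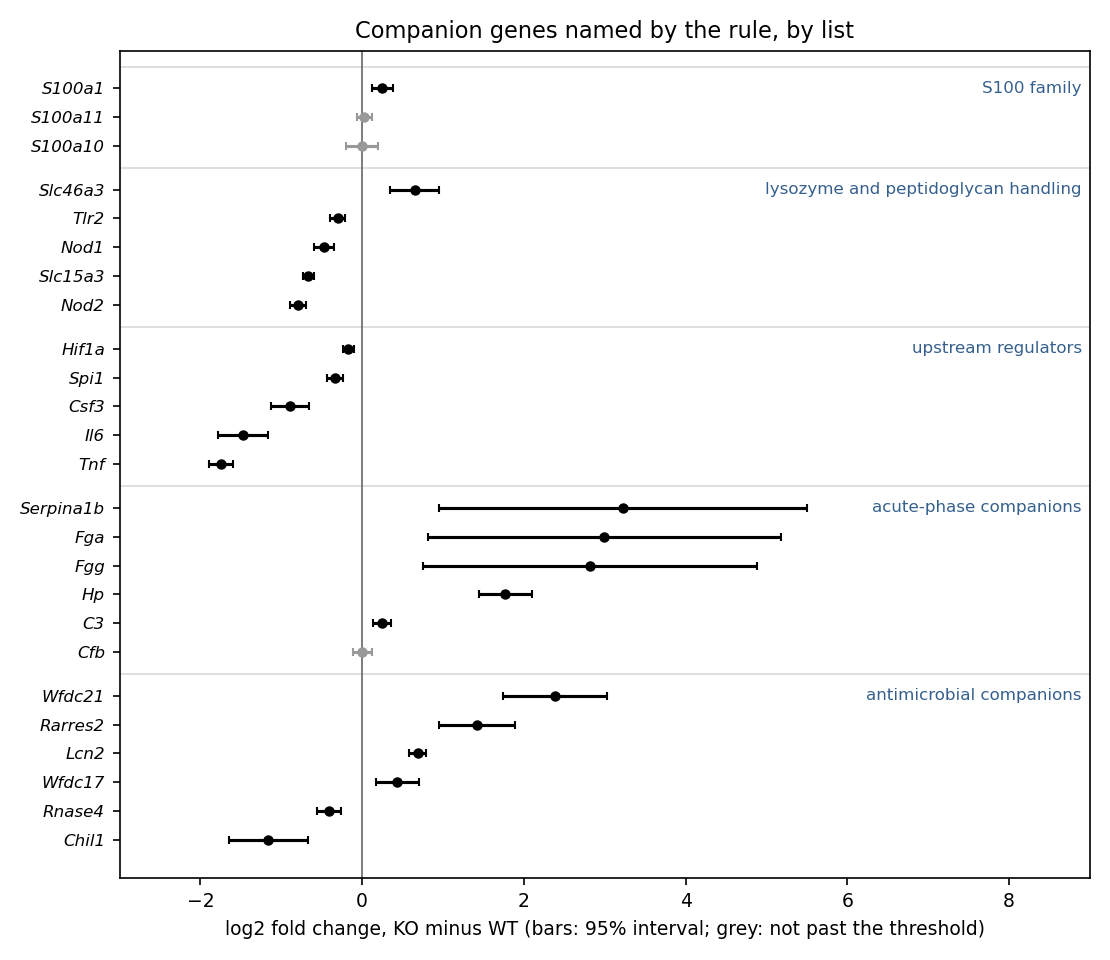
Log2 fold change, KO minus WT, with 95% intervals for the companion genes named by rule in 5 lists (black: adjusted p under 0.05; grey: not past the threshold). The upstream regulators that the rule names lie below 0, from -1.75 for Tnf to -0.17 for Hif1a. Of the 23 upstream regulators tested, 4 were called higher, and these 4 are not shown. The wide intervals of Serpina1b, Fga and Fgg belong to genes whose KO level lay in KO 1 and KO 2.

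For each called gene, the nearest profiles were sought among the 8816 genes whose log2 CPM averaged at least 3, as the root mean square difference of centred log2 CPM over the 10 libraries. For Lyz1 these were Sgcb, a sarcoglycan, at 0.038 and the scavenger receptor Scarf1 at 0.047. Mpeg1 was most like Ppp1r15b at 0.026 and Ubap2l at 0.028, and Orm1 most like Plpp6 at 0.054 and the histone gene H2aj at 0.058. S100a8 was nearest to Slc25a24 at 0.084 and Rin2 at 0.088. Camp had the loosest neighbours, mt-Nd3 at 0.098 and Mrps28 at 0.113, and its own libraries varied most, by 17.6% within KO. Neighbours were sought only for these 5 genes, and Camp was too low to be a candidate neighbour itself.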

How the data were processed

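RNA-seq was done on 10 macrophage libraries, 5 WT and 5 KO. The authors' deposited table holds counts of whole reads for every gene, per the file headers. It also holds FPKM by the authors, of which the 5 WT columns served to derive gene lengths and the 5 SI columns were not used. CASAVA 1.8 and TopHat2 2.0.6 appear in the submitters' processing notes, as do the builds mm10 and GRCm39 with no role stated. The counting program, its annotation and its strand setting were not given in the sources used here, so overlapping and antisense genes cannot be separated. A count was found for 27622 of 56980 genes. For 146 symbols on more than 1 identifier, the identifier with the most counts was used. The KO libraries are numbered as the SI columns are, and no label ties a single SI column to a KO sample.

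KO was compared with WT with edgeR 4.0.16 in R 4.3.3: TMM scaling, filterByExpr (minimum count 10) and the quasi-likelihood F test, with no block. Adjustment followed Benjamini-Hochberg over 14436 genes. The SE was taken as the log2 fold change over the square root of F. The procedure was tested on simulated data with far fewer changed genes than were called here. Those data do not probe the dependence on scaling. The Lyz1 share was compared with an exact permutation test (scipy 1.17.1). The intended test of the S100a9 to S100a8 ratio was left out, S100a9 being at 0 in several libraries.

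The members and lists were chosen with earlier results of these data known. Named were all 9 members and, from every list, the 3 most abundant tested genes and at most 3 called genes with the largest change. 1 gene that this rule names is not reported here. Any other gene in the text, paralogs of the members included, was named after its values were seen. Alternatives were DESeq2 size factors, the DESeq2 1.42.0 test, limma-voom (limma 3.58.1), robust edgeR, library totals, 2 other low-count filters, a block for the replicate number, and each library left out in turn. After seeing the data, 3 fits were added that leave out the pair KO 1 and KO 2, the pair KO 1 and KO 3, or these with WT 2 (WT 2, KO 1 and KO 2).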

Additional observations from a re-analysis of the deposited data

Results flagged for a closer look

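Of 98 groups of 5 libraries examined, 5 held a library far from the other 4, measured by its gap to the nearest library over the range of the group. Chance gives such a gap in about 1 in 20 groups. Wfdc21 was at 0.717 CPM in WT 4, against 0.199 to 0.346 CPM in the other WT libraries. The other 4 were hepatocyte genes in WT 2. Alb was at 15.7 CPM there, against 2.46 to 4.18 CPM in the other WT libraries. Apoa1 was at 1.93 CPM, against 0.0505 to 0.498 CPM. Fgb was at 1.55 CPM, against 0.253 to 0.498 CPM, and Serpina1b at 1.18 CPM, against 0.152 to 0.395 CPM. None of the 8 tested antimicrobial and acute-phase genes had such a library in either genotype, and Pglyrp1 was not examined.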

How the results depend on the processing

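Lyz1, Mpeg1, S100a8 and Orm1 kept their direction and their call under all 21 alternatives, 3 of them chosen after seeing the data. Camp kept both under 20, the exception being the fit without KO 1 and KO 3 (0.3523, adjusted p = 0.0775). With library totals the calls moved to 5 genes of the set higher, and over all genes to 4231 higher and 1361 lower. Lyz2 turned to 0.0607, Slpi passed at 0.2743 and Saa3 passed at 0.2273, while Adgre1 (0.0965) and S100a10 (0.1124) turned positive. Slpi also passed without KO 1 and KO 3 (0.3049). With 1 library left out, Saa3 ranged from 0.0805 to 0.1603, the latter without WT 3 and past the threshold. The Lyz1 share differed by -0.11853 percentage points without WT 2, KO 1 and KO 2 (exact permutation p = 0.0571, the smallest that 4 against 3 allows). Genes near 0 changed sign with 1 library left out: Cfb from -0.0185 to 0.0398, S100a10 from -0.0660 to 0.0451 and Adgre1 from -0.0299 to 0.0069. In the main fit the hepatocyte genes Alb and Fgb were far from 0, at 2.87 and 2.94, and did not pass (edgeR adjusted p = 0.0563 and 0.0624). With library totals the 5 hepatocyte markers tested were all called higher. Without KO 1 and KO 2, Alb was at -0.2534, Fgb at -0.0777, Cfb at -0.0032 and Adgre1 at 0.0145. Without WT 2 as well, Cfb was at -0.0359, Adgre1 at 0.0172 and S100a11 at -0.0153. Adgre1 was at 0.0085 without KO 1 and KO 3 and at 0.0060 with no filter. S100a10 was at 0.0188 with no filter and at 0.0058 with the stricter one. For named genes outside the set, 758 values over the alternatives kept direction and call, 27 gained a call, 36 lost one and 25 changed sign. The fits with libraries left out show only which libraries a value depends on. The cause of these changes was not tested. With the replicate number as a block, the same 3 genes of the set were higher and 2 lower, and 1765 genes were higher and 2015 lower over the whole table. Deviations of same-numbered libraries correlated at -0.114 to 0.184, so the numbers were not taken as pairs. Depth limited Pglyrp1 and S100a9, and the counts of Camp (39 to 86) were the lowest of the 8 tested genes of the set.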

Other observations

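Macrophage markers other than Lyz2 did not move together. The complement genes C1qb and C1qa fell by 0.76 ± 0.05 and 0.41 ± 0.05 on the log2 scale. Of the 10 markers, 3 rose, 3 fell and 4 did not pass, against 5 higher and 3 lower with library totals. Over all genes tested, 14.1% were called higher and 15.0% lower in the main fit. Among 14 mesothelial and fibroblast markers, 11 were tested, 3 rose and 2 fell, and their summed level ranged from 603 to 671 CPM in WT and from 624 to 794 CPM in KO. Col1a1 rose by 0.37 ± 0.05 and Col1a2 by 0.32 ± 0.06, while Col3a1 did not pass (-0.32 ± 0.13). Col3a1 did pass as lower with the replicate block (-0.34, adjusted p = 0.0447), without KO 3 (-0.44, adjusted p = 0.00939) and without KO 1 and KO 3 (-0.54, adjusted p = 0.00132). The mesothelial gene Upk3b fell by 2.69 ± 0.26 and Pdgfra, a fibroblast receptor, by 1.01 ± 0.08. Lymphocyte and mast cell markers summed to 0.690 to 3.41 CPM, and Cpa3, the 1 tested, fell by 1.58 ± 0.41.

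Tlr4, the LPS receptor, is named after its values were seen, since it lay at separate levels within both genotypes. It stood at 69.2 CPM in WT 5 and at 64.8 CPM in KO 3, whereas the remaining libraries lay at 7.68 to 8.91 CPM (WT) and at 8.64 to 13.8 CPM (KO). The difference in Tlr4 between genotypes did not pass (log2 fold change 0.07, edgeR adjusted p = 0.964).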
